A study of Mus musculus with 6 samples.

Results

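The genes described here serve the entry of lymphocytes into lymph nodes across high endothelial venules, and their exit. They are Glycam1, Cd34, Madcam1, Chst4, Fut7, Icam1, Vcam1 and S1pr1, chosen by name and read through every probe whose accession maps to one of these symbols in RefSeq. All 8 genes were found, with 1 probe each, among 37048 genes tested. RNA of whole mesenteric lymph nodes of adult mice was hybridised to 6 Agilent arrays with 2 colours. All 6 sample titles give the nodes as naive. The sample was in Cy3 and a common RNA pool of 11 mouse cell lines in Cy5.

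TB_TNF_KO nodes came from mice that lack TNF in both T and B cells, labelled TB-TNF KO double, and B_TNF_KO nodes from mice that lack it in B cells, labelled B-TNF KO. The loss in B cells is therefore shared by both groups, and the comparison is between loss of T cell TNF in addition and loss of B cell TNF alone. Each group has 3 samples, and each sample is a pool of the nodes of 3 mice, labelled male except TB_TNF_KO replicate 2, labelled female. The Cre lines and the exact age are not given in the sources used here, and wild-type nodes were not analysed here. TB_TNF_KO arrays 1 and 2 differed by no more than technical noise and were counted as 1 sample, so that TB_TNF_KO had 2 samples and B_TNF_KO 3. P-values measure the spread between these pools, since the labels are the only evidence that the pools came from separate mice.

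High endothelial venules are the postcapillary vessels through which naive lymphocytes leave the blood. L-selectin on the lymphocyte binds sulphated and fucosylated glycans on mucins of the vessel wall, and the slowed cell is then arrested by integrins that bind ICAM-1 or VCAM-1. MAdCAM-1 serves the integrin alpha4beta7 and is a mark of mucosal nodes such as the mesenteric ones. Lymphocytes leave again by following sphingosine-1-phosphate through the receptor S1PR1. TNF receptor and lymphotoxin signalling act on this vessel programme through NF-kB.

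The promoters of Icam1 and Madcam1 are shown because each holds a match to an NF-kB motif, in capitals. They are the 250 bases before the start of the gene in RefSeq (GRCm38.p6), both on the plus strand.
Icam1 promoter (chr9:21015690-21015939): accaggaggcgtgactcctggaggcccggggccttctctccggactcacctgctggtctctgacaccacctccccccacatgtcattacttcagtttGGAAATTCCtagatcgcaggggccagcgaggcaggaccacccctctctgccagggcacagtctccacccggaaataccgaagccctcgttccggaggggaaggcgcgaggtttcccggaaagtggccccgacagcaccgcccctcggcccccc
Madcam1 promoter (chr10:79664309-79664558): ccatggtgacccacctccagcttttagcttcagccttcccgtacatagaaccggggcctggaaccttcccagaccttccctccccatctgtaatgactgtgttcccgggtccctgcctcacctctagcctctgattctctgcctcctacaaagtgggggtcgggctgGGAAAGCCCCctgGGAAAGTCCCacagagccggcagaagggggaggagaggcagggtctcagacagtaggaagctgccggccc
The Madcam1 window has GGAAAGCCCC 83 bases and GGAAAGTCCC 70 bases before the start, both matches to the NF-kB consensus. The second also overlaps a match to GGAANNTCC. The Icam1 window has GGAAATTCC, a match to GGAANNTCC, 153 bases before the start and none to the longer consensus. Among 32851 promoter windows of 250 bases, searched on both strands, 7.25% held the consensus, 1.03% held 2 or more matches, and 3.59% held GGAANNTCC. Neither motif was found in the windows of Glycam1, Chst4, Cd34 or Fut7 (2 windows). No windows of Vcam1 and S1pr1 were used here. These matches describe the letters only.

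Parts of the array probes of Vcam1, S1pr1, Icam1 and Chst4 are shown with G and C in capitals, because the share of G and C in a probe moved with the group difference over all genes. Each probe is 60 bases long.
Vcam1 probe, 30 bases from its 5′ end: GtttGaGaaGaGaCattatttataaaaCCC
S1pr1 probe, 30 bases from its 5′ end: tGtGaatGaaGaGtaaCaaaGaataaCGaa
Icam1 probe, 30 bases from its 5′ end: aGCtGCtGtGGGaGGGtaaGCaCCCCtCCC
Chst4 probe, 30 bases from its 5′ end: tCtGCaaaaGCCaGGtGGaCataGtCaaGG
Over the whole probe, G and C made up 35% of the bases for Vcam1, 31.7% for S1pr1, 50% for Icam1 and 55% for Chst4.

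All 8 probes were well above background in both channels on all 6 arrays, with no saturated spot. Over all probes the sample channel was well above background for 95.91% to 99.61%, and its median signal was 144 to 166 on TB_TNF_KO arrays and 159 to 203 on B_TNF_KO arrays. Of the markers that define the tissue, the B cell gene Cd79a and the T cell gene Cd3e were above the reference on all 6 arrays. The chemokine Ccl19, made by stromal cells of the node, had log2 ratios of 4.37 to 4.62 in TB_TNF_KO and 4.40 to 4.53 in B_TNF_KO. Tnf, the gene deleted in both groups, had log2 ratios of -0.67, -0.63 and -0.84 in TB_TNF_KO and 0.19, 0.36 and 0.49 in B_TNF_KO, so that the groups did not overlap. Whether its probe lies within the deleted part was not looked up here. The Y-linked gene Eif2s3y had log2 ratios of -2.81, -2.84 and 1.49 on TB_TNF_KO arrays 1, 2 and 3 and 0.59, 0.88 and 1.83 on the B_TNF_KO arrays. This went against the label of TB_TNF_KO replicate 1, which is given as male. Ddx3y, also Y-linked, had -2.06, -1.95 and 1.25 in TB_TNF_KO and 0.05, 0.53 and 1.61 in B_TNF_KO. For both genes, B_TNF_KO arrays 1 and 2 lay between TB_TNF_KO arrays 1 and 2 and the replicates 3. Whether their pools held only males was not tested. Without TB_TNF_KO arrays 1 and 2, only 1 TB_TNF_KO sample is left, so passing a threshold there says little. The log2 differences, TB_TNF_KO minus B_TNF_KO, were then -0.292 for Vcam1, -0.34 for Icam1 and -0.191 for S1pr1. They were -0.214 for Glycam1, -0.613 for Madcam1, 0.071 for Chst4, -0.249 for Fut7 and -0.04 for Cd34.

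Values below are log2 ratios of sample over reference after normalisation, 1 per array and in the order of replicates 1, 2 and 3. They compare a gene with itself across arrays, not genes with each other. In whole nodes, fewer cells of a type and less RNA per cell cannot be told apart.

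Glycam1 and Madcam1, the most specific genes of the vessel wall in this set, did not separate the groups. Glycam1, the secreted mucin that carries L-selectin ligands, had 5.60, 5.68 and 5.06 in TB_TNF_KO and 5.45, 5.55 and 4.83 in B_TNF_KO. The TB_TNF_KO mean was 5.35 ± 0.41 (SD, n = 2) and the B_TNF_KO mean 5.28 ± 0.39 (SD, n = 3). The groups overlapped, and replicate 3 was the lowest in both. By limma the difference was 0.07 with a standard error of 0.26 (95% interval -0.55 to 0.70, adjusted p = 0.92).

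Madcam1, the ligand of alpha4beta7, had 4.09, 3.90 and 2.97 in TB_TNF_KO and 3.94, 3.82 and 3.00 in B_TNF_KO. Its means were 3.48 ± 0.72 (SD, n = 2) in TB_TNF_KO and 3.59 ± 0.51 (SD, n = 3) in B_TNF_KO. Again the low values were those of replicate 3 in both groups, and the groups overlapped. The difference was -0.10 with a standard error of 0.38 (95% interval -1.03 to 0.83, adjusted p = 0.93 by limma). With replicate 3 of each group set apart from the others as a block, the interval narrowed to -0.10 to 0.22 around a difference of 0.06. With the same block, the Glycam1 difference was 0.18 (95% interval 0.04 to 0.32, adjusted p = 0.176 by limma). That block was chosen after the data were seen.

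Cd34, a mucin of endothelium and of blood progenitors that can carry the same ligands, lay below the reference on every array. It had -0.67, -0.72 and -0.72 in TB_TNF_KO and -0.73, -0.55 and -0.77 in B_TNF_KO. The groups overlapped, with a difference of -0.03 and a standard error of 0.07 (95% interval -0.21 to 0.15, adjusted p = 0.91 by limma).

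Chst4 encodes the sulphotransferase that completes the L-selectin ligands of these venules. Its log2 ratios were -0.005, -0.09 and 0.04 in TB_TNF_KO and 0.02, -0.04 and -0.08 in B_TNF_KO. The signal was dim, at 133 to 192 in TB_TNF_KO and 180 to 214 in B_TNF_KO after background subtraction, below the reference signal of the same spot on every array. The groups overlapped, with a difference of 0.03 and a standard error of 0.05 (95% interval -0.10 to 0.16, adjusted p = 0.85 by limma).

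Fut7, the fucosyltransferase that makes selectin ligands both in these vessels and in leukocytes, had 1.58, 1.57 and 1.31 in TB_TNF_KO and 1.55, 1.74 and 1.39 in B_TNF_KO. Replicate 3 was the lowest in each group, by a smaller step than for Glycam1 or Madcam1. The groups overlapped, with a difference of -0.12 and a standard error of 0.12 (95% interval -0.42 to 0.18, adjusted p = 0.72 by limma).

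Vcam1, Icam1 and S1pr1 had lower values in TB_TNF_KO than in B_TNF_KO on every array, but passed no adjusted threshold in the fit on 5 samples. Vcam1, the adhesion molecule that binds alpha4beta1 and that endothelium and follicular dendritic cells carry, had 1.42, 1.36 and 1.51 in TB_TNF_KO and 1.85, 1.70 and 1.85 in B_TNF_KO. The groups did not overlap, and the gap between the nearest arrays exceeded the spread within TB_TNF_KO. The difference was -0.35 with a standard error of 0.07 (95% interval -0.51 to -0.19), a 1.27-fold lower ratio, with adjusted p = 0.081 by limma. With all 6 arrays counted as samples, the difference of -0.37 passed with adjusted p = 0.0177. With the replicate number as a block on those 6 arrays, it was -0.37 with a standard error of 0.04 (adjusted p = 0.0137 by limma). Both of these fits count TB_TNF_KO arrays 1 and 2 as separate samples. Over all alternatives the limma adjusted p of Vcam1 ran from 0.0137 to 0.44.

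Icam1, the ligand of LFA-1 on endothelium and on many leukocytes, had 2.71, 2.58 and 2.48 in TB_TNF_KO and 2.85, 2.75 and 2.86 in B_TNF_KO. The groups were apart by a narrow margin, with TB_TNF_KO array 1 next to B_TNF_KO array 2. The difference was -0.25 with a standard error of 0.07 (95% interval -0.42 to -0.09), a 1.19-fold lower ratio, with adjusted p = 0.149 by limma. Without TB_TNF_KO replicate 3 the difference was -0.17 (95% interval -0.36 to 0.02).

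S1pr1, the receptor that lymphocytes use to leave the node and that endothelium also carries, had 2.62, 2.65 and 2.97 in TB_TNF_KO and 3.28, 3.09 and 3.11 in B_TNF_KO. TB_TNF_KO array 3 stood nearer to the B_TNF_KO arrays than to the other TB_TNF_KO arrays. The difference was -0.36 with a standard error of 0.11 (95% interval -0.63 to -0.09), a 1.28-fold lower ratio, with adjusted p = 0.193 by limma. Without TB_TNF_KO arrays 1 and 2 the difference was -0.19 (95% interval -0.43 to 0.05), with the lone TB_TNF_KO sample assumed to vary like B_TNF_KO. Its reference signal was dim, at 62 to 78 on TB_TNF_KO arrays and 60 to 75 on B_TNF_KO arrays.

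**Figure D1:**
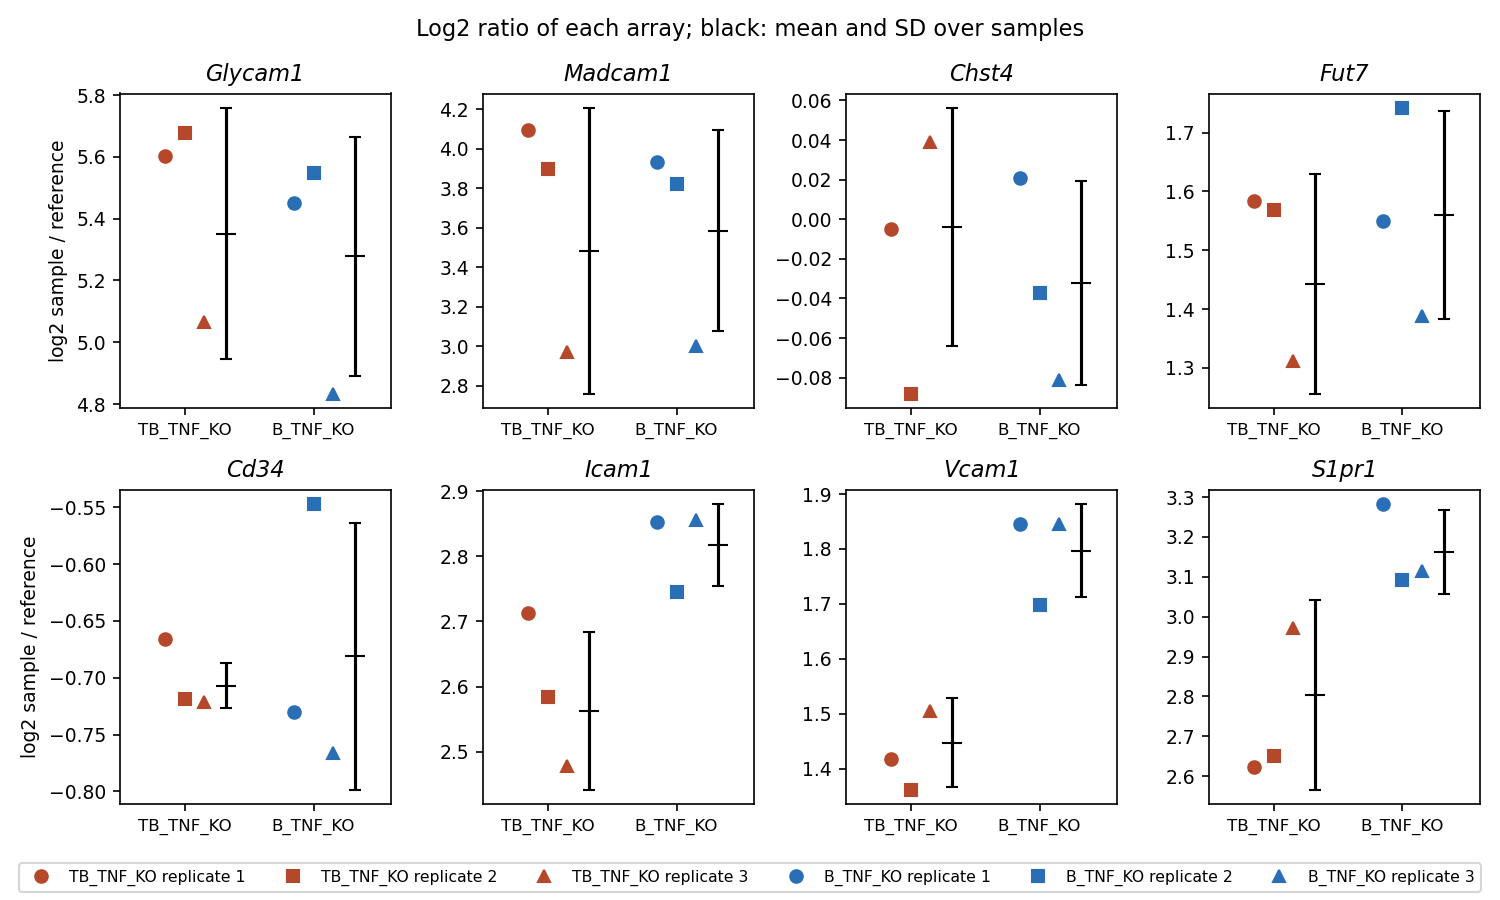
Log2 ratio of sample over reference for the 8 genes on each array, TB_TNF_KO left of B_TNF_KO, with a circle, square and triangle for replicates 1, 2 and 3. The black line marks the mean and the error bar the SD over samples (n = 2 for TB_TNF_KO, with arrays 1 and 2 averaged, and n = 3 for B_TNF_KO). Icam1, Vcam1 and S1pr1 are the genes whose groups do not overlap, and replicate 3 is low for Glycam1 and Madcam1 in both groups.

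At a limma adjusted p under 0.05, 0 of the 8 genes were lower and 0 were higher in TB_TNF_KO, while 4 of all 37048 genes (0.0108%) were lower and 0 higher. At an unadjusted p under 0.05, 3 of the 8 were lower and 0 higher, against 11.3% of all genes lower and 5.03% higher. The groups did not overlap for 3 of the 8, all lower in TB_TNF_KO, against 17.2% of all genes lower and 10.7% higher. The median difference was -0.11 over the 8 genes and -0.01 over all genes.

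With all 6 arrays counted as samples, 1 of the 8, Vcam1, was lower in TB_TNF_KO, against 4.68% of all genes lower and 1.45% higher. From the sample channel alone, quantile-normalised, 0.775% of all genes passed as lower and 0.683% as higher, a more even division than the 4 lower and 0 higher of the ratios.

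**Figure D2:**
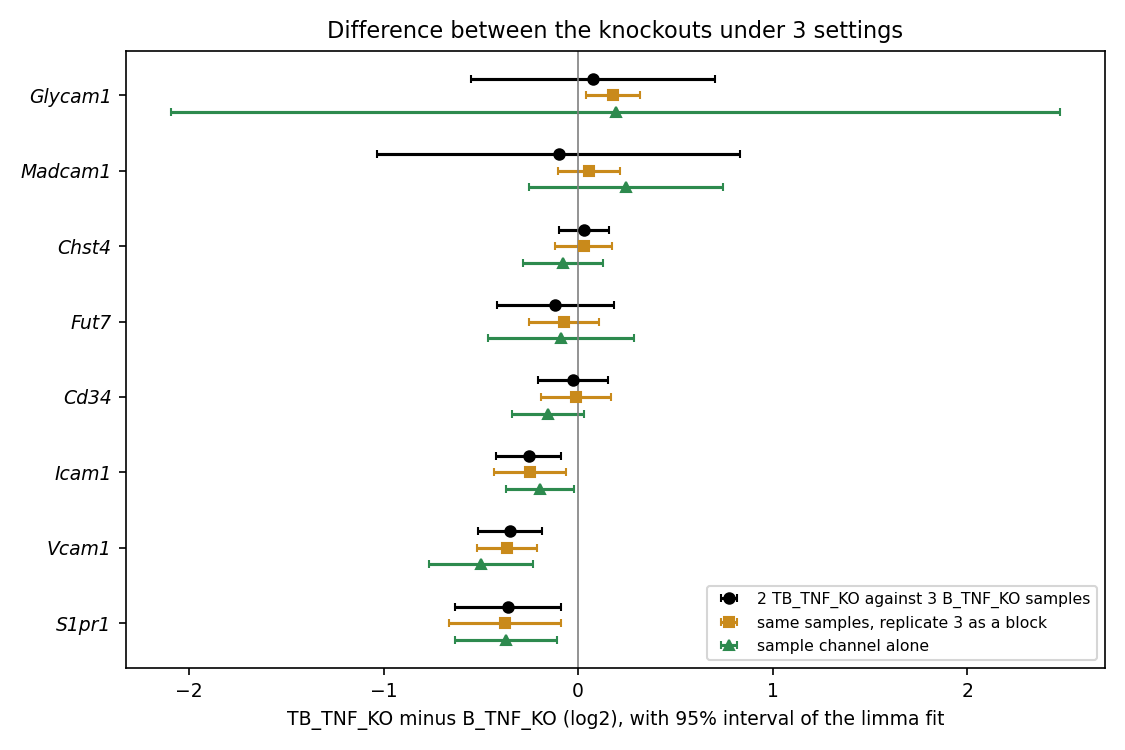
Difference TB_TNF_KO minus B_TNF_KO on the log2 scale for each of the 8 genes, with its 95% interval, from the ratio fit on 2 TB_TNF_KO and 3 B_TNF_KO samples, from the same fit with replicate 3 as a block, and from the sample channel alone. The intervals of Icam1, Vcam1 and S1pr1 lie below 0 in all 3 fits, and the sample channel of Glycam1 has the widest interval.

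Since the reference is the same RNA on every array, the 2 channels were also read apart. For Vcam1 the log2 difference was -0.50 in the sample channel and -0.36 in the reference channel. For Icam1 they were -0.20 and -0.16, and for S1pr1 -0.37 and -0.15. The reference value thus had the same sign as the sample value for all 3 genes. In the reference channel at an unadjusted p under 0.05 by limma, 2 of the 8 genes, Vcam1 and Icam1, were lower and 0 higher, against 13.6% of all genes lower and 9.16% higher. The part of this shift in the result was not tested.

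The background-subtracted signals, not scaled between arrays, showed the shift of the reference for Vcam1. Vcam1 gave sample signals of 960, 860 and 1274 in TB_TNF_KO and 2147, 1542 and 2565 in B_TNF_KO, with reference signals of 856, 870 and 876 on the TB_TNF_KO arrays and 1038, 933 and 1081 on the B_TNF_KO arrays. Icam1 gave sample signals of 3005, 2529 and 3155 in TB_TNF_KO and 4842, 3970 and 5315 in B_TNF_KO, while its reference signals overlapped between the groups. The scans were extracted on a separate day for each group, per the file headers, so that day and group cannot be told apart.

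Probe composition moved with the group difference over the whole array. Among genes whose probe has up to 35% G and C, where Vcam1, S1pr1 and Cd34 lie, 30.9% had groups that did not overlap with TB_TNF_KO lower. The share was 15% in the band over 40% and up to 45%, which holds Glycam1, Madcam1 and Fut7, and 5.69% above 55%. In the band of Icam1, over 45% and up to 50%, it was 9.19%.

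Read against genes with the same share of G and C, the difference of Vcam1 stood at percentile 4.99 of 4351 genes, that of S1pr1 at percentile 5.19 of 539 and that of Icam1 at percentile 0.992 of 1411. Icam1 was thus lower relative to its own class than the other 2 genes, although its difference was the smallest of the 3. The part of probe composition in these differences was not tested.

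**Figure D3:**
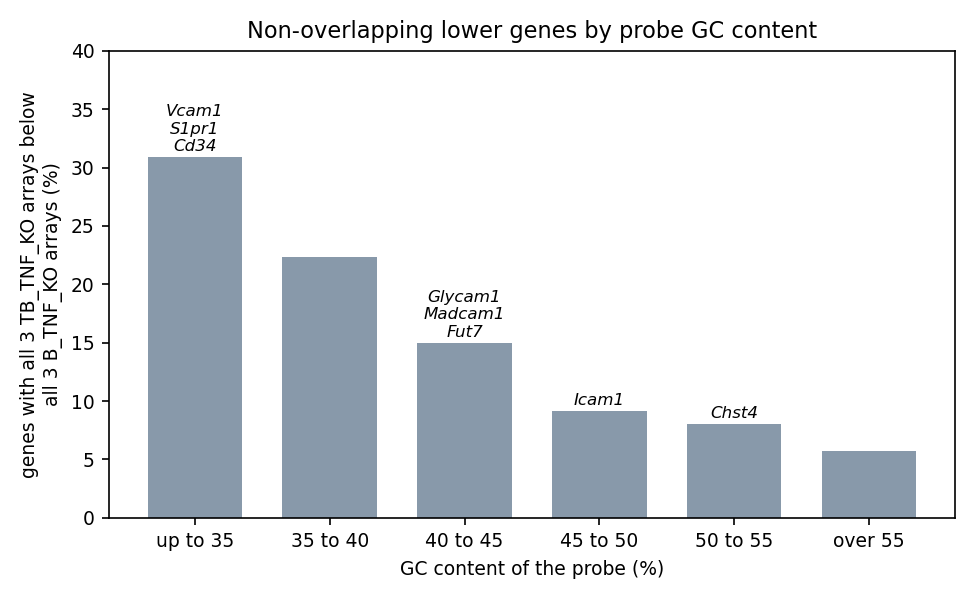
Share of genes (percent) with all 3 TB_TNF_KO arrays below all 3 B_TNF_KO arrays, by the percent of G and C in the probe, with the 8 genes named over their band. The share is 30.9% in the band up to 35% and 5.69% above 55%.

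Across the pools, Glycam1, Madcam1 and Fut7 differed more between replicate 3 and the others than between the groups. The Madcam1 log2 ratio of replicate 3 minus the mean of replicates 1 and 2 was -1.02 in TB_TNF_KO and -0.88 in B_TNF_KO. For Glycam1 these differences were -0.58 in TB_TNF_KO and -0.67 in B_TNF_KO, and for Fut7 -0.26 in both. For the other 5 genes they lay between -0.17 and 0.34 in TB_TNF_KO and between -0.13 and 0.07 in B_TNF_KO. Among all genes, 68 (0.184%) were lower by more than 0.5 in both groups. Of the 8 genes, Glycam1 and Madcam1 were among them. By their labels the replicates are separate pools, and they have no order. TB_TNF_KO arrays 1 and 2 were counted as 1 sample.

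The Glycam1 signal differed between pools in both channels. Its sample signal was 35507, 31880 and 7670 in TB_TNF_KO and 38083, 29970 and 7024 in B_TNF_KO. The mean of replicates 1 and 2 was 4.39 times that of replicate 3 in TB_TNF_KO and 4.84 times in B_TNF_KO. On the quantile-normalised sample channel, replicate 3 minus the mean of replicates 1 and 2 was -2.49 in TB_TNF_KO and -2.53 in B_TNF_KO (log2).

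The reference signal at the same spot was 2122, 1998 and 437 on the TB_TNF_KO arrays and 1655, 1425 and 336 on the B_TNF_KO arrays. It followed the sample by 4.71 times in TB_TNF_KO and 4.58 times in B_TNF_KO, although the reference RNA was the same throughout. On every array it was 4.35% to 6.27% of the sample signal. A shift of the reference at least as large in both groups was found for 9 of 37048 genes, Glycam1 included.

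The ratio thus differed less between pools than the sample channel, and which of them is nearer to the RNA level was not tested. For Madcam1 the channels ran otherwise. Its sample channel gave differences of -0.52 in TB_TNF_KO and -0.53 in B_TNF_KO between replicate 3 and the others (log2), and its reference signal was higher in replicate 3, at 920 against 650 and 624 in TB_TNF_KO and 723 against 529 and 602 in B_TNF_KO. The cause of the shifts in the reference was not tested.

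**Figure D4:**
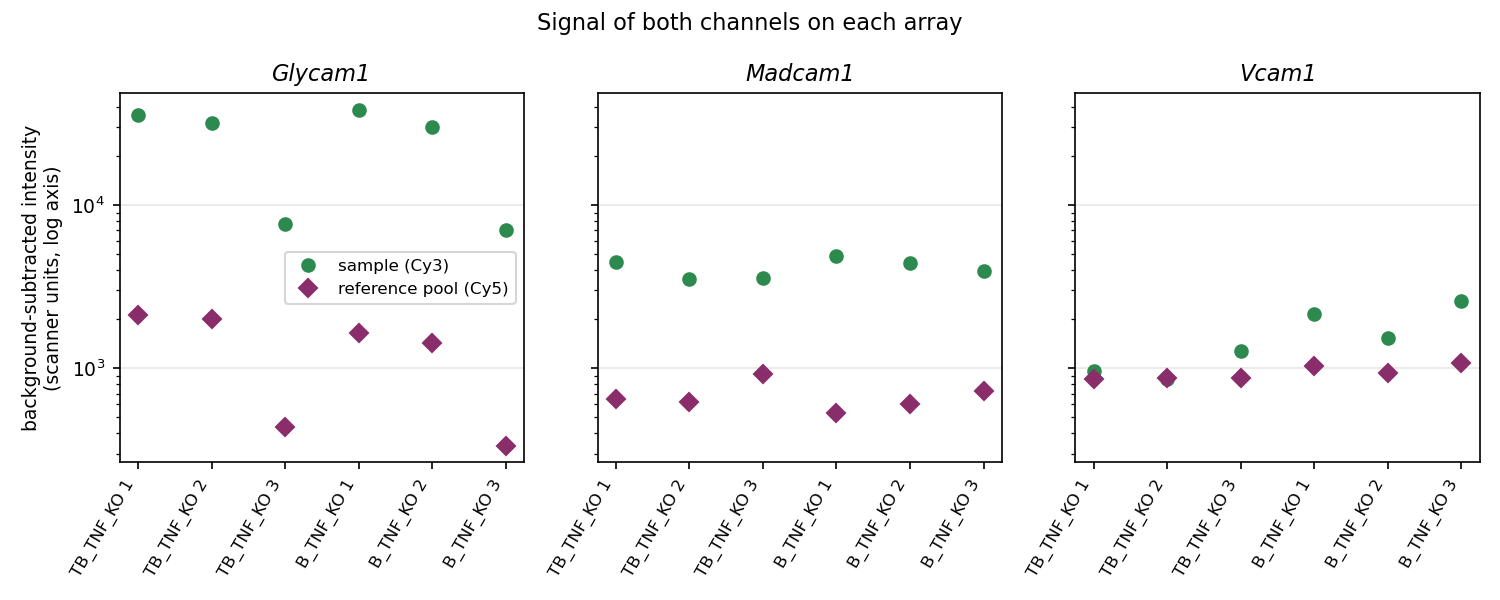
Background-subtracted signal (log axis) of the sample channel and of the reference channel on each array for Glycam1, Madcam1 and Vcam1, TB_TNF_KO arrays left of B_TNF_KO arrays. For Glycam1 both channels fall together on replicate 3 of each group, to 7670 and 7024 in the sample and 437 and 336 in the reference.

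The same pools differed in the genes of the exocrine pancreas, a gland that lies beside the mesenteric nodes. The median log2 ratio of 9 such genes was 4.83, 4.79 and 0.02 in TB_TNF_KO and 4.80, 4.52 and 0.10 in B_TNF_KO. Replicates 1 and 2 of both groups were thus high and replicate 3 of both at the level of the reference. The summed sample signal of these genes was 309304, 313647 and 3036 in TB_TNF_KO and 102638, 273622 and 3015 in B_TNF_KO. This sum and those of the lists below were taken on the quantile-normalised sample channel. The reference signals of the pancreas genes, background-subtracted and not scaled between arrays, moved with the sample as well. For the trypsinogen Prss2, for example, they were 3552, 3363 and 28 in TB_TNF_KO and 680, 2742 and 28 in B_TNF_KO. Prss2, Cela2a and Try4 were each saturated in the sample on 3 arrays, so that their sample signals there are lower bounds and the sums which hold them are uncertain. The part of pancreatic RNA in the Glycam1 and Madcam1 differences between pools was not tested.

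Of 8 genes listed as follicular dendritic cell markers, a cell type that carries Vcam1, all had lower values in TB_TNF_KO. By limma 1 of them was lower at an adjusted p under 0.05, and it was Cxcl13, which is also in the list of entry and exit genes. The median difference was -0.27, and 5 had groups that did not overlap, against the 17.2% of all genes that were lower in this way. Their summed sample signal was 52503, 59490 and 53645 in TB_TNF_KO and 62112, 64374 and 66543 in B_TNF_KO, with no overlap. With 6 arrays counted as samples, 4 of the 8 were lower, against 4.68% of all genes.

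Of 7 lymphatic endothelial genes, 1 was lower by limma, the hyaluronan receptor Lyve1, with 3.33, 3.13 and 3.19 in TB_TNF_KO and 4.38, 4.44 and 4.47 in B_TNF_KO (difference -1.22, adjusted p = 0.0081). The groups did not overlap for 3 lower genes and 1 higher gene of that list, against 17.2% and 10.7% of all genes. The higher gene was the chemokine Ccl21a, which was saturated on all 6 arrays. The summed sample signal of the list overlapped between the groups, but it holds Ccl21a and is therefore uncertain.

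Of 11 blood endothelial genes, 9 had lower and 2 higher values, with a median difference of -0.20 and none past the adjusted threshold. The groups did not overlap for 5 lower genes and 1 higher gene, against 17.2% and 10.7% of all genes. With 6 arrays counted as samples, none of the 11 was lower at the adjusted threshold. The summed sample signal of this list, over 10 of its genes, ran from 19853 to 23872 in TB_TNF_KO and from 20866 to 22890 in B_TNF_KO, with overlap.

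The B cell list was divided. Of its 7 genes 4 had lower and 3 higher values, with a median difference of -0.08. Blk, a kinase of B cell receptor signalling, had -0.51 and Cd79a, a chain of that receptor, -0.42, while Cd22, an inhibitory receptor of B cells, had 0.12. None of these passed by limma in the fit on 5 samples, and the summed sample signal ran from 30211 to 36909 in TB_TNF_KO and from 31807 to 32588 in B_TNF_KO, with overlap. The groups did not overlap for 3 of the 7, all lower, against 17.2% of all genes. With 6 arrays counted as samples, 2 of the 7 were lower, against 4.68% of all genes. Of 7 T cell genes and 7 adipocyte genes none passed, with median differences of -0.09 and -0.06. The groups did not overlap for 2 T cell genes and 1 adipocyte gene, all lower, against the same 17.2% of all genes. The part of cell composition in the lower Vcam1, Icam1 and S1pr1 values was not tested.

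Other genes of entry and exit were read from a list of 75, of which 59 were tested. By limma at an adjusted p under 0.05, 1 was lower in TB_TNF_KO and 0 were higher. At an unadjusted p under 0.05, 16 of the 59 were lower and 4 higher, against 11.3% and 5.03% of all genes. The groups did not overlap for 15 lower and 4 higher genes, against 17.2% and 10.7% of all genes. The median difference of the list was -0.07, beside -0.01 over all genes. With the replicate number as a block on 6 arrays, 7 genes of the list were lower and 1 was higher, against 6.49% and 1.84% of all genes.

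The gene called was Cxcl13, the CXCR5 ligand of B cell follicles, which had log2 ratios of 3.65, 3.38 and 3.40 in TB_TNF_KO and 5.15, 5.04 and 4.87 in B_TNF_KO. Its difference was -1.56 with a standard error of 0.09 (adjusted p = 0.0256 by limma). The count fell to 0 without TB_TNF_KO replicate 2 or 3 or without any one of the B_TNF_KO replicates, and without TB_TNF_KO arrays 1 and 2. For Cxcl13 the sample channel alone gave -1.94 and the reference channel -0.75, although the reference RNA was the same on every array. The part of this reference shift in its difference was not tested. Tnf itself had a difference of -1.09 with a standard error of 0.10 (adjusted p = 0.0529 by limma). Its sample channel gave -1.17, and its reference channel -0.19.

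The other genes with large differences passed no adjusted threshold in the fit on 5 samples, while Sparcl1 and Sphk2 passed with 6 arrays counted as samples (adjusted p = 0.0114 and 0.0145 by limma). Sparcl1, a matricellular protein enriched in venule endothelium, had 1.709, 1.502 and 1.878 in TB_TNF_KO and 2.358, 2.414 and 2.355 in B_TNF_KO, a difference of -0.63 (adjusted p = 0.053 by limma). Emcn, an endothelial sialomucin, had -0.30, and Cxcl12, a chemokine for naive lymphocytes, -0.37. Sphk2, a kinase that makes sphingosine-1-phosphate, had -0.28, and Cd24a, a mucin-like surface protein, -0.27 with groups that overlapped.

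Ccl21a, the CCR7 ligand that venules present to arriving cells, had 0.53 in the ratio and 0.05 in the sample channel alone (adjusted p = 0.2455 by limma for the ratio). It was saturated on all 6 arrays and has near-identical copies, so its difference is uncertain. By role, and in the fit on 5 samples, none of 11 glycosylation genes passed, with 10 lower and 1 higher value, against 55% lower values over all genes, and a median of -0.12. None of 12 endothelial adhesion genes passed, with a median of -0.07. Among 9 egress genes none passed either. At an unadjusted p under 0.05 by limma, 3 of them were lower and 2 higher, against 11.3% and 5.03% of all genes.

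The pattern over the 6 arrays of the mean of Glycam1, Madcam1, Chst4 and Fut7 was matched best by genes of the exocrine pancreas. Chst4 itself did not share the pattern of the other genes in that mean. Its Pearson correlations were -0.03 with Glycam1, -0.02 with Madcam1 and -0.22 with Fut7. Among 953 genes whose log2 ratios varied by an SD of at least 0.2, the highest Pearson correlations were 0.992 for Cela3b, 0.991 for Prss3 and 0.990 for Amy1. Clps followed with 0.988 and Reg2 with 0.987. These encode digestive enzymes, a cofactor of lipase and a secreted protein of acinar cells. Amy1 has near-identical copies, so its probe may read several.

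The pattern of Vcam1 was matched best by Fbxo8 (0.999), Mzt1 (0.998) and Rnf6 (0.997), whose differences between the groups were -0.52, -0.63 and -0.38. The 6 points share their arrays and reference, and TB_TNF_KO arrays 1 and 2 count as 1 sample, so these correlations only describe the arrays.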

How the data were processed

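Per the labels, RNA of pooled mesenteric lymph nodes was hybridised in Cy3 against a common reference in Cy5. The deposited scanner files hold spot intensity in both channels, made with Agilent Feature Extraction A.7.5.1 per the file headers, and a log10 ratio that the authors' software computed. The deposited series table correlated at 0.993 to 0.996 with the log10 processed sample signal of the same array, so it holds log10 values of the sample channel. Its scaling and centring are not given in the sources used here.

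Control spots and 228 outlier spots were left out. Mean intensities were corrected with normexp (offset 50) against the local median background and loess-normalised within arrays, giving log2 ratios (limma 3.58.1, R 4.3.3). Probes had to exceed background clearly, by the software's own test of the Cy3 signal, on 3 or more arrays, and the brightest probe stood for a gene. This left 37048 genes, 12257 of them with a RefSeq symbol. Groups were compared with lmFit and eBayes, with Benjamini-Hochberg adjustment over all genes. The number of arrays limits the precision.

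Between TB_TNF_KO arrays 1 and 2, the SD over genes of the sample channel differences was 0.95 times that of the reference channel differences. It was 1.05 to 1.56 times for the 14 other pairs of arrays, so TB_TNF_KO arrays 1 and 2 were averaged. The lowest other value, 1.05, was that of TB_TNF_KO array 1 and B_TNF_KO array 2. Same-numbered arrays of the groups had correlated deviations (0.142, 0.518 and 0.62), though TB_TNF_KO array 1 correlated better with B_TNF_KO array 2 (0.412). The replicate number was used only as a block in alternatives, and the fit reported was not paired. The fits were tested on simulated data.

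The 8 genes and all lists were chosen with earlier results of these data known. From the list of entry and exit genes, the text names those called and then those with the largest differences, up to 8. Alternatives changed the background correction, normalisation, filters, summarisation, samples and blocks.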

Additional observations from a re-analysis of the deposited data

How the results depend on the processing

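Vcam1, Icam1 and S1pr1 were lower in TB_TNF_KO than in B_TNF_KO under all 26 alternatives, with differences of -0.50 to -0.29, -0.38 to -0.15 and -0.55 to -0.14. Vcam1 alone passed, so that 1 of the 8 genes was called with 6 arrays counted separately, with the replicate block and with the GC correction plus that block, against 0 otherwise. In the other 5 genes the sign turned under some settings, never past the threshold. Cd34 became 0.011 without background subtraction, 0.008 with GC correction and 0.014 with GC correction and the replicate block, and was 0.045 between the replicates 3 alone, with no test. Chst4 became -0.077 in the sample channel, -0.003 with GC correction and the block and -0.039 on replicates 1 and 2 only. Glycam1 became -0.046 with median centring and -0.214 without TB_TNF_KO arrays 1 and 2. Madcam1 became 0.245 in the sample channel, 0.07 on 6 arrays with or without the replicate block, 0.068 with the GC correction added, 0.119 on replicates 1 and 2, and 0.056 with the 2-level replicate block. Leaving out single replicates gave -0.068 to 0.041 for Cd34, with the higher value without B_TNF_KO replicate 2, -0.014 to 0.055 for Chst4, negative without TB_TNF_KO replicate 3, -0.202 to 0.015 for Fut7, positive without TB_TNF_KO replicate 3, -0.148 to 0.362 for Glycam1, negative without B_TNF_KO replicate 3, and -0.393 to 0.411 for Madcam1, positive without TB_TNF_KO replicate 3 and without B_TNF_KO replicate 1 or 2. The 2-level block and the fit without TB_TNF_KO arrays 1 and 2 were chosen after the data were seen, and that fit assumes that the lone TB_TNF_KO sample varies like B_TNF_KO.

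Of the list of entry and exit genes, 1 was lower in the fit reported. The count was 0 without background subtraction, with plain subtraction, with the authors' series table or log ratio, on replicates 1 and 2 only and without TB_TNF_KO arrays 1 and 2. It was 2 in the sample channel, 3 without saturated probes, with a trended and robust spread or with array weights, 5 on 6 arrays, 7 with the replicate block and 6 with GC correction and the block. Those last 2 settings also gave 1 higher gene. Leaving out single replicates gave 0 to 1. Over all genes, the 4 lower and 0 higher became 1734 and 537 on 6 arrays, 2403 and 682 with the block, 1903 and 636 with the GC correction too, 287 and 253 in the sample channel, 146 and 55 without saturated probes, 364 and 124 with a trended and robust spread, 331 and 104 with array weights, 6 and 0 with median centring, 2 and 0 with the mean of all probes, 4 and 1 with the 2-level block, and 0 or 1 lower under no or plain background subtraction, the authors' values, replicates 1 and 2 only and without TB_TNF_KO arrays 1 and 2. Leaving out single replicates gave 0 to 4 lower. The fit without TB_TNF_KO replicate 2 is also the one with only pools labelled male. It keeps TB_TNF_KO replicate 1, whose Y-linked values went against that label, so it is no comparison of males only. The cause of these changes was not tested, except that the 6-array fits count more samples.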
